A study of Mus musculus with 24 samples.

Results

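Pericentral Wnt target genes are genes that hepatocytes around the central vein express under Wnt signalling. A set of 10 of them was followed here in mouse liver: Glul, Axin2, Lgr5, Rnf43, Znrf3, Tbx3, Lect2, Rhbg, Nkd1 and Sp5. They were found by gene name among the 37325 genes on the array, and each was read from the probe with the highest mean signal over all arrays. All 10 were among the 21495 genes that passed the filter on dim probes. Livers came from male C57BL/6J mice, 12 weeks old, split into 4 groups of 6, and each mouse had an array of its own. The groups labelled LWT_Fed and LWT_Fasted were p110αhep+/+ mice, which carried floxed Pik3ca alleles and no Cre. Those labelled LKO_Fed and LKO_Fasted were p110αhep−/− mice, which carried the same floxed alleles with a Cre transgene under the albumin promoter. The paper describes the deletion as specific to hepatocytes, and which liver cells kept the gene was not examined here. Fed mice ate ad libitum, fasted mice had no food for 24 h, and every liver was taken at Zeitgeber time 16. Pik3ca encodes p110α, a catalytic subunit of the phosphoinositide 3-kinase that acts downstream of the insulin receptor.

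Wnt proteins bind Frizzled receptors and LRP co-receptors and so spare β-catenin from a destruction complex built on Axin, APC and GSK3. β-catenin then joins TCF/LEF factors on DNA and raises its target genes. In the liver the ligands come mainly from endothelial cells of the central vein, R-spondins strengthen the signal, and hepatocytes near that vein take up a program of glutamine synthesis, ammonium transport and drug metabolism, whereas hepatocytes near the portal tract make urea and glucose. Several targets feed back on the pathway, either as receptors and ligases that set the amount of Frizzled at the membrane or as inhibitors inside the cell.

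Promoter sequence from RefSeq (GRCm38.p6) was held for 6 of the 10 genes, Glul, Sp5, Nkd1, Rnf43, Axin2 and Lect2, with 7 start sites in all. The stretch from 250 bases before to 50 bases after each start was searched on both strands for CTTTGA, a short core of the site that TCF/LEF factors recognise, and for the longer CTTTGAT, which contains it. Sp5 and Lect2 held a match and are shown. They are also the 2 genes whose fasting change differed between the genotypes. Whether a match and this difference are related was not tested, and no promoter was held for Lgr5, Znrf3, Tbx3 and Rhbg. The 250 bases before the start are printed 5′ to 3′ on the strand of the gene, with CTTTGA or its reverse complement TCAAAG in capitals. Sp5 lies on the plus strand (chr2:70474673-70474922) and Lect2 on the minus strand (chr13:56548539-56548788).
Sp5: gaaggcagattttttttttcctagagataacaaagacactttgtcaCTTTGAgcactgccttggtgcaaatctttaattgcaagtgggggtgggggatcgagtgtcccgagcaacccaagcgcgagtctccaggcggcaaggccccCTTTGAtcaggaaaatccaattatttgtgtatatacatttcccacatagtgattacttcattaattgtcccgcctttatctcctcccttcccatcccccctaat
Lect2: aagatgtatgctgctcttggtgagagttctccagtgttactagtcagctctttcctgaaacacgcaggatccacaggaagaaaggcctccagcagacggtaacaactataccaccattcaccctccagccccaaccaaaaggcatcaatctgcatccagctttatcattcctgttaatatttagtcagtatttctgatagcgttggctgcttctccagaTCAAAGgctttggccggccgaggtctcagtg
In Sp5 the matches began 204 and 104 bases before the start, and in Lect2 the match began 31 bases before it. The second match of Sp5 and the match of Lect2 extend to CTTTGAT. Of all 32851 promoters in the table, 16% held CTTTGA, 1.73% held it at least 2 times and 3.73% held CTTTGAT. A match describes the letters and is not a shown site of binding.

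The scans were close in quality, with 54.7% to 63.0% of spots well above background on each array and no saturated spot. The 3 slides held 2 arrays of every group each. In a principal component analysis of the whole table LKO_Fasted replicates 1 and 2 stood apart from their group, and for the genes described here LKO_Fasted replicate 4 did, with values given below. The probe for Pik3ca was not lower in arrays labelled LKO: the log2 fold change was 0.58 (SE 0.113, limma adjusted p = 0.00147) in fed mice and -0.02 (SE 0.120, adjusted p = 0.930) in fasted mice. The place of that probe relative to the deleted exons was not examined, so genotype below refers to the labels. For this mouse line the paper reports p110α protein missing in p110αhep−/− mice and a PCR fragment of the deleted allele only in their livers. All values are quantile normalized log2 signals, and a signal is compared only with signals of the same probe.

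Among the genes that passed for fasting, some were higher and some lower in fasted mice. In LWT, 6 of the 10 passed an adjusted p of 0.05, against 41.5% of all genes tested: Znrf3 and Tbx3 were higher in fasted mice (19.9% of all genes) and Lgr5, Lect2, Rhbg and Nkd1 were lower (21.7%). In LKO, 8 of the 10 passed, again against 41.5% of all genes: Axin2, Znrf3, Tbx3 and Sp5 were higher (19.7%) and Lgr5, Rnf43, Lect2 and Rhbg were lower (21.8%). Axin2 passed the filter on dim probes only through the fasted groups, where it is high, so its call is not independent of that filter, and without Axin2 the count in LKO is 7 of 9. The median log2 fold change over the 10 genes was -0.24 in LWT and -0.26 in LKO, beside -0.01 and -0.02 over all genes. With a fold change above 1.5 also asked for, 3 genes remained in LWT (Lgr5, Tbx3 and Nkd1, against 10% of all genes) and 5 in LKO (Lgr5, Rnf43, Tbx3, Lect2 and Sp5, against 12.8%). In a whole liver a fall in signal cannot be told apart from a fall in the number of cells that express the gene.

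Between the genotypes the share of the 10 genes that passed did not exceed that of all genes in either feeding state. In fed mice none of the 10 passed limma's test at an adjusted p of 0.05, against 16.4% of all genes, and 3 of them, Znrf3, Lect2 and Nkd1, had an unadjusted p under 0.05. In fasted mice 2 passed, against 20.6% of all genes: Sp5 was higher in LKO (10% of all genes) and Lect2 was lower (10.6%). The interaction, in which the fasting change of LWT is subtracted from that of LKO, passed for the same 2 genes, against 7.97% of all genes, and was positive for Sp5 (4.11%) and negative for Lect2 (3.86%). With a fold change above 1.5, no gene was left in fed mice (3.83% of all genes), Lect2 in fasted mice (4.06%) and both Lect2 and Sp5 in the interaction (3.09%). The median log2 difference of the 10 genes was -0.04 in fed and -0.00 in fasted mice, as it was -0.01 and -0.00 over all genes.

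**Figure D1:**
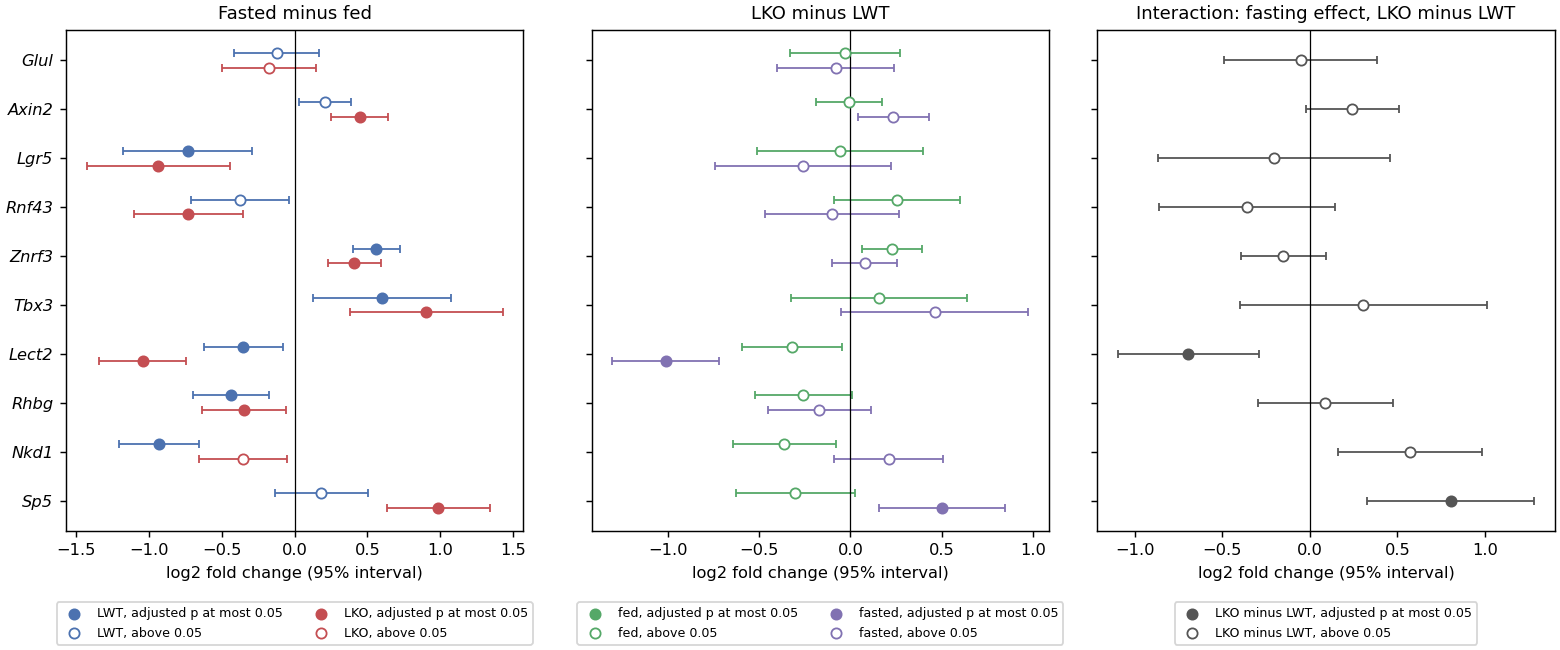
Log2 fold changes with 95% intervals of the 10 genes from the limma model, for fasted minus fed (left), LKO minus LWT (middle) and the interaction (right), where filled points passed an adjusted p of 0.05 over all probes. The fasting changes lie on both sides of 0, and only Lect2 and Sp5 have filled points for genotype and interaction.

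Lgr5, Rnf43 and Znrf3 set how much Wnt a cell perceives. Lgr5 is a receptor for R-spondins, and Rnf43 and Znrf3 are closely related ubiquitin ligases that remove Frizzled from the membrane unless R-spondin holds them back. After fasting Lgr5 fell and Znrf3 rose in both genotypes, and Rnf43 fell in LKO on its brighter probe. Lgr5 was read on chromosome 10 at 114887403 to 114887462 of mm9, the build of all probe positions. Lgr5 signals ran from 7.30 to 8.49 (median 7.58) in LWT_Fed and from 6.79 to 7.57 (median 7.02) in LWT_Fasted. They ran from 7.25 to 8.54 (median 7.89) in LKO_Fed and from 6.37 to 7.11 (median 6.83) in LKO_Fasted. The fed and fasted arrays overlapped in LWT, whereas in LKO every fasted array lay below every fed array. The fall was 1.66-fold in LWT (log2 fold change -0.73, SE 0.214, adjusted p = 0.00840) and 1.91-fold in LKO (-0.94, SE 0.237, adjusted p = 0.00290). It was seen within each slide, between -0.46 and -0.90 in LWT and between -0.88 and -1.28 in LKO. By group mean the levels fell in the order LKO_Fed, LWT_Fed, LWT_Fasted and LKO_Fasted, and of the neighbours in this order only LWT_Fed and LWT_Fasted differed. The weighted model put LKO_Fed below LWT_Fed by 0.06 (adjusted p = 0.894), so the order of these 2 groups is not settled. A second, dimmer Lgr5 probe differed by -0.26 in LWT (adjusted p = 0.0979), and its difference of -0.41 in LKO passed (adjusted p = 0.0182).

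Rnf43, on chromosome 11 at 87548944 to 87549003, ran from 9.72 to 10.68 (median 10.39) in LWT_Fed and from 9.72 to 10.28 (median 9.89) in LWT_Fasted. In LKO the fed arrays ran from 9.85 to 10.92 (median 10.57) and the fasted arrays from 9.44 to 10.20 (median 9.73). Fed and fasted arrays overlapped in both genotypes, in LKO through 1 fed array, replicate 6 at 9.85. The fasting difference was -0.37 in LWT (SE 0.163, adjusted p = 0.0712) and passed in LKO at -0.73 (SE 0.180, adjusted p = 0.00233), with differences of -0.93, -0.38 and -0.99 within the slides. No pair of neighbours in the order LKO_Fed, LWT_Fed, LWT_Fasted and LKO_Fasted differed. The interaction was -0.36 (95% interval -0.86 to 0.15, adjusted p = 0.404), so the fasting change is not shown to differ between genotypes. The second Rnf43 probe, near background, gave -0.02 in LKO (adjusted p = 0.937), and the mean of both probes gave -0.37 with an adjusted p of 0.0602, so the call in LKO rests on the brighter probe.

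Znrf3 rose with fasting in both genotypes. Its signals ran from 7.30 to 7.63 (median 7.48) in LWT_Fed, below all LWT_Fasted arrays at 7.76 to 8.17 (median 8.0). They ran from 7.56 to 8.08 (median 7.66) in LKO_Fed and from 7.86 to 8.22 (median 8.15) in LKO_Fasted, which overlap through LKO_Fed replicate 6 at 8.08. Fasting raised Znrf3 1.47-fold in LWT (0.56, SE 0.0786, adjusted p = 6.09e-06) and 1.33-fold in LKO (0.41, SE 0.0869, adjusted p = 0.000601). Within the slides the rise lay between 0.40 and 0.62 in LWT and between 0.18 and 0.60 in LKO. In the order LKO_Fasted, LWT_Fasted, LKO_Fed and LWT_Fed, LWT_Fasted lay above LKO_Fed by 0.33 (adjusted p = 0.00213), and the 2 groups of each feeding state did not pass. For fed mice the genotype difference of 0.23 just missed the threshold (adjusted p = 0.0574) but passed under 11 of 37 alternatives, among them the authors' series matrix values (0.0343), no slide term (0.0423) and the mean of all kept probes (0.0240), and a second probe passed it at 0.29 (SE 0.0706, adjusted p = 0.00718). That second probe rose by 0.63 in LWT and by 0.26 in LKO, with an interaction of -0.37 (adjusted p = 0.0333) where the chosen probe gave -0.15 (adjusted p = 0.477). The third probe rose by 0.25 in LWT (adjusted p = 0.0193) and differed by 0.08 in LKO (adjusted p = 0.515).

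Axin2 and Nkd1 are feedback inhibitors inside the cell: Axin2 is a scaffold of the β-catenin destruction complex, and Nkd1 binds Dishevelled. Nkd1 fell in fasted LWT mice and lay near the threshold in LKO, and Axin2 passed in LKO from a signal near background. The Axin2 probe, on chromosome 11 at 108811980 to 108812039, was dim. It was well above background on 2 of 6 arrays of LWT_Fed, 6 of LWT_Fasted, 4 of LKO_Fed and 5 of LKO_Fasted, so only the fasted groups took it past the filter, and the fed values are partly not above background. Signals ran from 5.53 to 6.25 (median 5.80) in LWT_Fed and from 5.84 to 6.36 (median 6.01) in LWT_Fasted. They ran from 5.58 to 6.15 (median 5.77) in LKO_Fed and from 5.85 to 6.51 (median 6.27) in LKO_Fasted, so fed and fasted arrays overlapped in both genotypes. The fasting difference was 0.21 in LWT (SE 0.0858, adjusted p = 0.0591) and 0.45 in LKO (SE 0.0948, adjusted p = 0.000613). Within the slides it lay between 0.05 and 0.43 in LWT and between 0.28 and 0.58 in LKO. In the order LKO_Fasted, LWT_Fasted, LWT_Fed and LKO_Fed no neighbours differed. On the scanner's processed signal, which changes background and scaling together, these differences were 0.82 (adjusted p = 0.0116) and 1.02. With median scaling the difference in LKO was 0.27 (adjusted p = 0.0175), so its size depends on the processing. The call in LKO was also made with no filter on dim probes. The other Axin2 probe was dimmer still and did not pass the filter.

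Nkd1, on chromosome 8 at 91116160 to 91116219, ran from 8.67 to 9.53 (median 9.02) in LWT_Fed and from 8.08 to 8.57 (median 8.16) in LWT_Fasted. In LKO the fed arrays ran from 8.44 to 8.97 (median 8.77) and the fasted arrays from 7.58 to 8.75 (median 8.44). All LWT_Fasted arrays lay below all LWT_Fed arrays, and the LKO groups overlapped. Nkd1 fell 1.90-fold in LWT (-0.93, SE 0.133, adjusted p = 7.74e-06), between -0.57 and -0.92 within the slides. In LKO the difference of -0.36 (SE 0.147, adjusted p = 0.0570) missed the threshold, as did the fed genotype difference of -0.36 (SE 0.136, adjusted p = 0.0742) and the interaction of 0.57 (SE 0.198, adjusted p = 0.0804). The difference in LKO passed under 12 of 38 alternatives, among them no array weights (adjusted p = 0.0267), no slide term (0.0308) and the authors' series matrix values (0.0483), and was negative within each slide. The fed genotype difference passed under 5 of 37. Without LKO_Fasted replicate 4 the Nkd1 interaction passed at 0.64 (adjusted p = 0.0303), and without LWT_Fed replicate 6 it passed at 0.69 (adjusted p = 0.0227), as it did on the processed signal (0.70) and with normexp background correction (0.58). It did not pass under the other 33 of 37 alternatives, and without array weights it was 0.36 (adjusted p = 0.372). No neighbours in the order LWT_Fed, LKO_Fed, LKO_Fasted and LWT_Fasted differed.

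Tbx3 and Sp5 encode transcription factors, a T-box repressor and a zinc finger factor of the Sp family that is a direct target of β-catenin in embryos. Both had higher signals after fasting in LKO. Tbx3, on chromosome 5 at 120134511 to 120134570, ran from 11.06 to 12.09 (median 11.76) in LWT_Fed and from 11.74 to 12.50 (median 12.39) in LWT_Fasted. It ran from 11.18 to 12.39 (median 11.74) in LKO_Fed and from 11.91 to 13.34 (median 12.66) in LKO_Fasted. The fed and fasted arrays overlapped in both genotypes, and the spread within groups was wide. Tbx3 rose 1.51-fold in LWT (0.60, SE 0.228, adjusted p = 0.0390) and 1.87-fold in LKO (0.91, SE 0.252, adjusted p = 0.00600). Within slides 1, 2 and 3 the difference was 1.35, 0.01 and 0.49 in LWT and 0.29, 1.32 and 0.96 in LKO. The LWT call ended, with an adjusted p between 0.0530 and 0.218, without any 1 of LWT_Fed replicates 3, 5 and 6 or LWT_Fasted replicates 2, 3, 5 and 6. It also ended without array weights (0.0513), with the array row as a term (0.0648) and without the filter (0.0975). No neighbours in the order LKO_Fasted, LWT_Fasted, LKO_Fed and LWT_Fed differed. A second Tbx3 probe rose by 0.58 in LWT (adjusted p = 0.0166) and by 0.99 in LKO (adjusted p = 0.000576), and was higher in LKO than in LWT in fasted mice by 0.64 (adjusted p = 0.0292), where the chosen probe gave 0.46 (adjusted p = 0.206).

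Sp5, on chromosome 2 at 70315688 to 70315747, passed for fasting in LKO and not in LWT. Its signals ran from 7.66 to 8.16 (median 7.91) in LWT_Fed and from 7.83 to 8.59 (median 8.12) in LWT_Fasted. In LKO_Fed they ran from 7.48 to 7.94 (median 7.65). The LKO_Fasted arrays lay at 8.62 to 8.99 except replicate 4, which at 7.10 was the lowest of all 24 arrays. The fasting difference was 0.18 in LWT (SE 0.153, adjusted p = 0.363) and a 1.98-fold rise in LKO (0.99, SE 0.170, adjusted p = 6.73e-05), and the interaction was 0.80 (SE 0.229, adjusted p = 0.0352). In fasted mice LKO exceeded LWT 1.42-fold (0.50, SE 0.167, adjusted p = 0.0369), and these are the only neighbours that differed in the order LKO_Fasted, LWT_Fasted, LWT_Fed and LKO_Fed. The model gave replicate 4 a low weight, which is why its fold change exceeds the difference of the group means. With equal weights the genotype difference was 0.30 (adjusted p = 0.366) and the interaction 0.56 (adjusted p = 0.302). The genotype call ended under 14 of 38 alternatives, among them leaving out any 1 of LWT_Fed replicate 5, LWT_Fasted replicates 3, 5 and 6 or LKO_Fasted replicates 1, 2, 3, 5 and 6 (adjusted p between 0.0569 and 0.104). The interaction call ended under 16 of 37, among them leaving out any 1 of LWT_Fed replicates 1, 4 and 5, LWT_Fasted replicates 3, 5 and 6, LKO_Fed replicates 3 to 6 or LKO_Fasted replicates 3, 5 and 6 (adjusted p between 0.0526 and 0.0787). Without replicate 4 they were 0.62 (SE 0.115, adjusted p = 0.000604) and 0.93 (SE 0.157, adjusted p = 0.000917), and the rise in LKO was 1.11. Within slide 1, which holds that array, the genotype difference was -0.46 and the interaction -0.43, against 0.80 and 1.24 in slide 2 and 0.55 and 0.88 in slide 3. The rise in LKO had the same sign in each slide, at 0.17, 1.18 and 1.11. The 2 copies of CTTTGA printed above lie before the start of Sp5.

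Glul, Rhbg and Lect2 carry out or mark pericentral functions. Glul is glutamine synthetase, confined in normal liver to the hepatocytes nearest the central vein. Rhbg is an ammonium transporter of the membrane, and Lect2 is a hepatokine, a protein that hepatocytes secrete into blood. Glul, the defining marker of the zone, passed in no comparison. The Glul probe, on chromosome 1 at 155756765 to 155756824, ran from 14.60 to 15.15 (median 14.74) in LWT_Fed and from 14.47 to 15.09 (median 14.66) in LWT_Fasted. It ran from 14.36 to 14.99 (median 14.83) in LKO_Fed and from 13.36 to 14.94 (median 14.65) in LKO_Fasted. The 4 groups overlapped, and the lowest array was again LKO_Fasted replicate 4. The fasting difference was -0.12 in LWT (95% interval -0.42 to 0.17) and -0.18 in LKO (-0.50 to 0.15), and the genotype difference was -0.03 in fed mice (-0.33 to 0.27) and -0.08 in fasted mice (-0.40 to 0.24). Of 2 further Glul probes neither passed in the 5 comparisons.

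Rhbg, on chromosome 3 at 88047265 to 88047324, ran from 10.74 to 11.37 (median 10.96) in LWT_Fed and from 10.26 to 10.85 (median 10.55) in LWT_Fasted. In LKO the fed arrays ran from 10.23 to 11.07 (median 10.60) and the fasted arrays from 9.95 to 10.59 (median 10.24). Fed and fasted arrays overlapped in each genotype, and the genotypes overlapped in each feeding state. Rhbg fell 1.35-fold in LWT (-0.44, SE 0.125, adjusted p = 0.00742), between -0.38 and -0.54 within the slides. In LKO it fell 1.27-fold (-0.35, SE 0.138) at an adjusted p of 0.0490, a call that 24 of 38 alternatives ended. Within slides 1, 2 and 3 the LKO difference was -0.79, 0.0022 and -0.45. No neighbours in the order LWT_Fed, LKO_Fed, LWT_Fasted and LKO_Fasted differed.

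Lect2 showed the clearest genotype difference. Its probe lies on chromosome 13 at 56643950 to 56644009. Signals ran from 13.85 to 14.39 (median 14.11) in LWT_Fed and from 13.60 to 13.87 (median 13.75) in LWT_Fasted. They ran from 13.25 to 14.20 (median 13.75) in LKO_Fed and from 12.29 to 13.11 (median 12.63) in LKO_Fasted. All LKO_Fasted arrays lay below every array of the other 3 groups. The fall with fasting was 1.28-fold in LWT (-0.35, SE 0.130, adjusted p = 0.0337) and 2.06-fold in LKO (-1.04, SE 0.143, adjusted p = 4.08e-06). Fasted LKO arrays lay 2.02-fold below fasted LWT arrays (-1.01, SE 0.141, adjusted p = 3.74e-05), at -1.0, -1.06 and -1.14 within the slides. The interaction was -0.69 (SE 0.193, adjusted p = 0.0318), at -0.23, -0.89 and -0.97 within the slides, while the fed genotype difference of -0.32 did not pass (SE 0.133, adjusted p = 0.108). LKO_Fed and LWT_Fasted, neighbours in the order of levels, differed by 0.03 (adjusted p = 0.869), and LWT_Fasted and LKO_Fasted were the only neighbours that differed. The LWT call ended without any 1 of LWT_Fed replicates 4 and 5 or LWT_Fasted replicates 3 to 6 (adjusted p 0.0528 to 0.103), and the interaction call without any 1 of LWT_Fed replicates 2 and 5, LWT_Fasted replicate 6, LKO_Fed replicates 4 and 5 or LKO_Fasted replicates 5 and 6 (adjusted p 0.0507 to 0.0797). The LWT call also ended without the filter (0.0726), and the interaction call with median scaling (0.0526) and without the filter (0.0784).

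**Figure D2:**
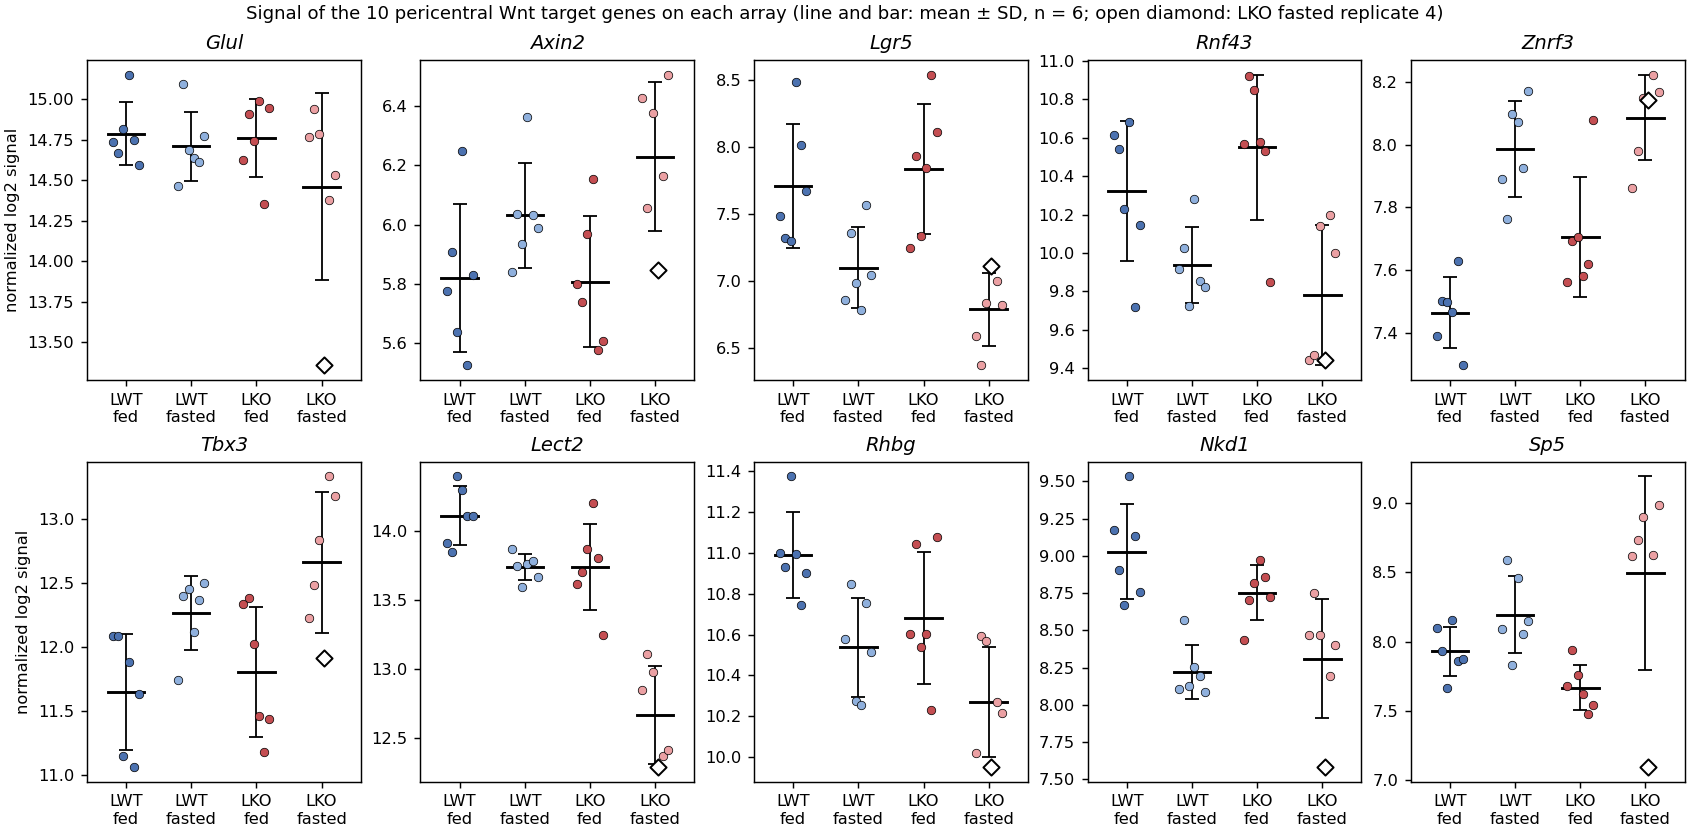
Normalized log2 signal of each gene on each of the 24 arrays by group, with group mean ± SD (n = 6) and LKO_Fasted replicate 4 as an open diamond. The axes differ between genes and do not start at 0, and in Lect2 all LKO_Fasted arrays lie below the other groups while in Sp5 the diamond at 7.10 lies apart from the other 5 LKO_Fasted arrays at 8.62 to 8.99.

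The groups were without overlap for Znrf3 and Nkd1 in the fasting comparison of LWT (21.6% of all genes), for Lgr5 and Lect2 in that of LKO (22.1%), for none of the 10 in fed mice between genotypes (8.63%) and for Lect2 in fasted mice between genotypes (8.68%).

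LKO_Fasted replicate 4 differed from the rest of its group across these genes. It was the lowest of its 6 arrays for 8 of the 10 genes, Glul, Axin2, Rnf43, Tbx3, Lect2, Rhbg, Nkd1 and Sp5, and the highest for Lgr5, whereas 23.8% of all genes were lowest on it and 25.1% highest. Its difference from the mean of the other 5 arrays was -1.67 log2 units for Sp5, -1.33 for Glul, -0.90 for Tbx3 and -0.87 for Nkd1. Lists of zoned genes moved on the same array. Of 23 other pericentral hepatocyte genes 13 were lowest there, among them Aldh1a1 (14.89 against 15.74 to 16.33) and Cyp1a2 (11.20 against 11.49 to 12.13). Of 22 periportal genes 17 were highest there, among them Aldh1b1 (12.51 against 9.55 to 10.20), Cdh1, the E-cadherin of portal hepatocytes (10.94 against 9.07 to 9.68), and Sds, serine dehydratase (14.96 against 12.79 to 13.60). Of 8 markers of central vein endothelium 7 were lowest there, including the ligands Wnt2 (7.80 against 8.82 to 9.58) and Wnt9b (5.82 against 6.55 to 7.21) and the R-spondin Rspo3 (8.90 against 9.18 to 9.69). The array was singled out after its values were seen, and what sets it apart was not tested. Without it 7 genes passed for fasting in LKO, as the Rhbg call ended (-0.31, adjusted p = 0.0741), 2 passed between genotypes in fasted mice and 3 passed in the interaction.

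**Figure D3:**
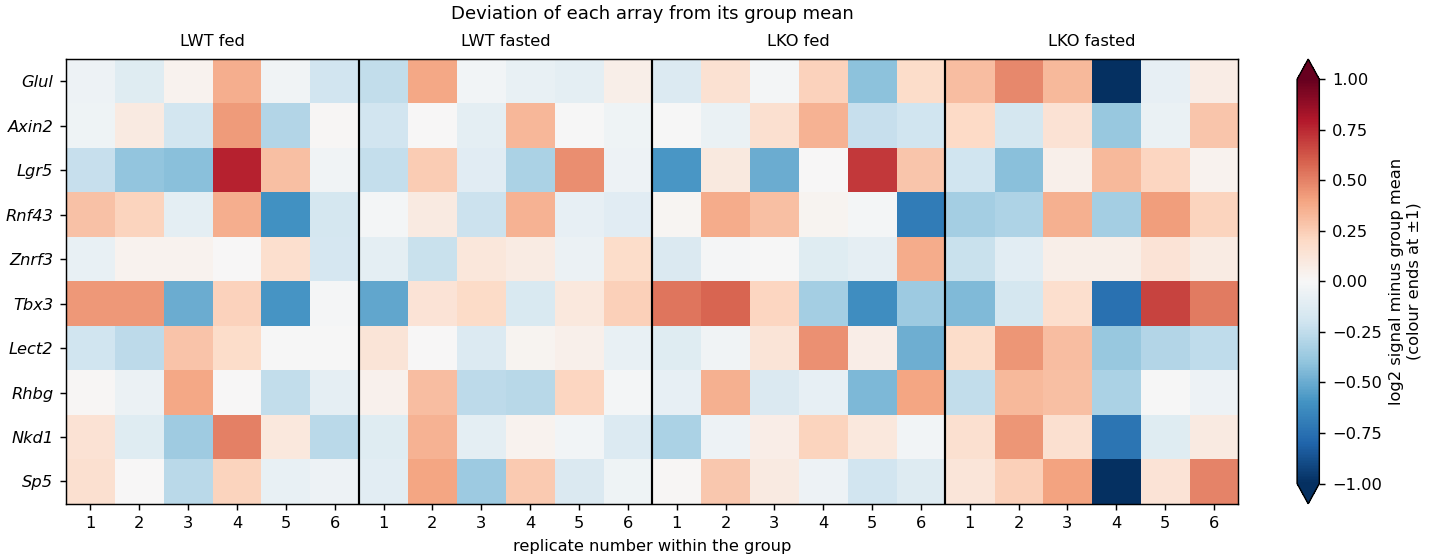
Deviation of each array from the mean of its group for each gene, in log2 units, with 6 replicates per group side by side. The column of LKO_Fasted replicate 4 is blue for 8 genes, and LWT_Fed replicate 4 and LKO_Fasted replicate 2 are red for several of them.

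**Figure D4:**
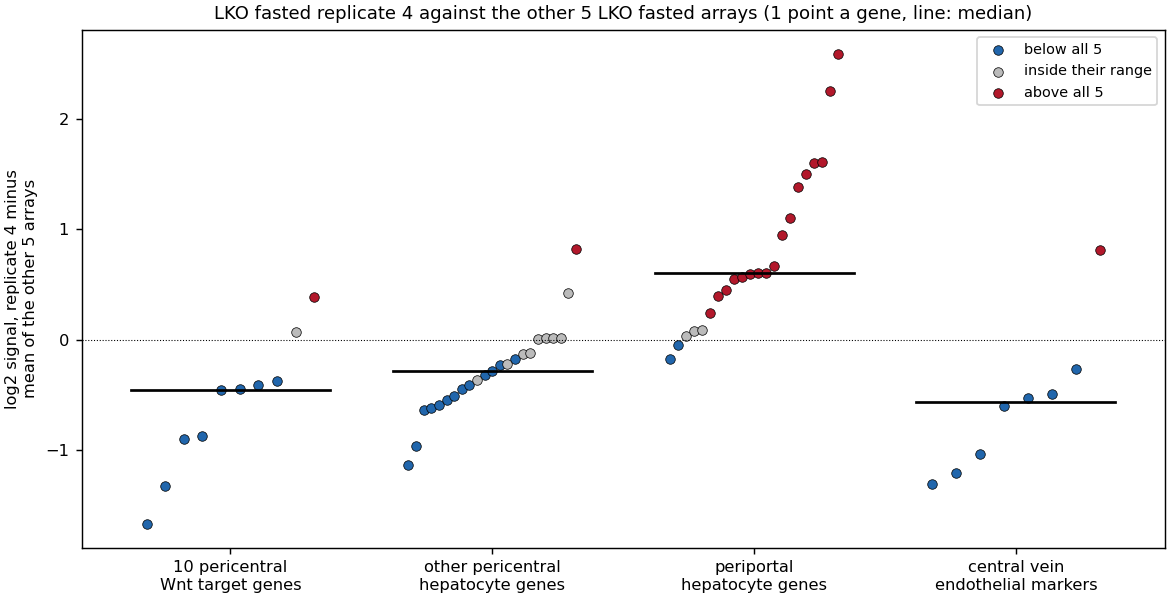
Signal of LKO_Fasted replicate 4 minus the mean of the other 5 LKO_Fasted arrays, 1 point per gene, for the 10 genes and for lists of other pericentral, periportal and central vein endothelial genes. The medians, drawn as lines, are -0.46, -0.29, 0.60 and -0.57 log2 units.

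Once group and slide were removed, several of the genes varied together from mouse to mouse. Of 45 pairs, 10 passed a permutation test within groups (100000 resamples, two-sided, Benjamini-Hochberg adjusted over the 45 pairs, n = 24), and the correlation was positive in all 10. Pairs of other genes were not put to this test, so the count is not shown to be particular to these genes. Glul, Axin2, Nkd1 and Sp5 accounted for 5 of the 10 pairs. Glul and Sp5 gave r = 0.84 and rho = 0.60 (permutation p = 0.00244, adjusted 0.0220), and Glul and Nkd1 gave r = 0.79 and rho = 0.66 (permutation p = 0.000300, adjusted 0.00600). Nkd1 and Sp5 gave r = 0.71 and rho = 0.57 (permutation p = 0.00168, adjusted 0.0189). Axin2 correlated with Glul at r = 0.66 and rho = 0.67 (permutation p = 1e-04, adjusted 0.00450) and with Sp5 at r = 0.63 and rho = 0.69 (permutation p = 0.000400, adjusted 0.00600). The remaining pairs were Axin2 and Rnf43 (r = 0.60), Rnf43 and Tbx3 (0.62), Glul and Rhbg (0.61), Tbx3 and Sp5 (0.54) and Axin2 and Tbx3 (0.52). Axin2, in 4 of the 10 pairs, was partly not above background on the fed arrays, so these 4 rest in part on values near background. By rank correlation 8 of the 10 passed and Rnf43 and Sp5 passed besides, while Glul and Rhbg (rho = 0.49, adjusted 0.101) and Axin2 and Tbx3 (adjusted 0.0607) did not. Lgr5, Znrf3 and Lect2 entered none of the 10 pairs.

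Part of this covariation rests on LKO_Fasted replicate 4. Without it r fell to 0.36 for Glul and Sp5, to 0.43 for Nkd1 and Sp5, to 0.39 for Glul and Rhbg and to 0.63 for Glul and Nkd1. It was 0.70 for Glul and Axin2, 0.64 for Axin2 and Sp5 and 0.61 for Axin2 and Rnf43. Without the slide term Glul and Axin2 no longer passed (r = 0.49, permutation p adjusted 0.0976), nor did Axin2 and Tbx3 (adjusted 0.246). Without the 2 arrays farthest from the median of the first gene, r lay between 0.44 and 0.74 over the 10 pairs. The points share RNA, array and normalization, and slide was a term of the model.

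**Figure D5:**
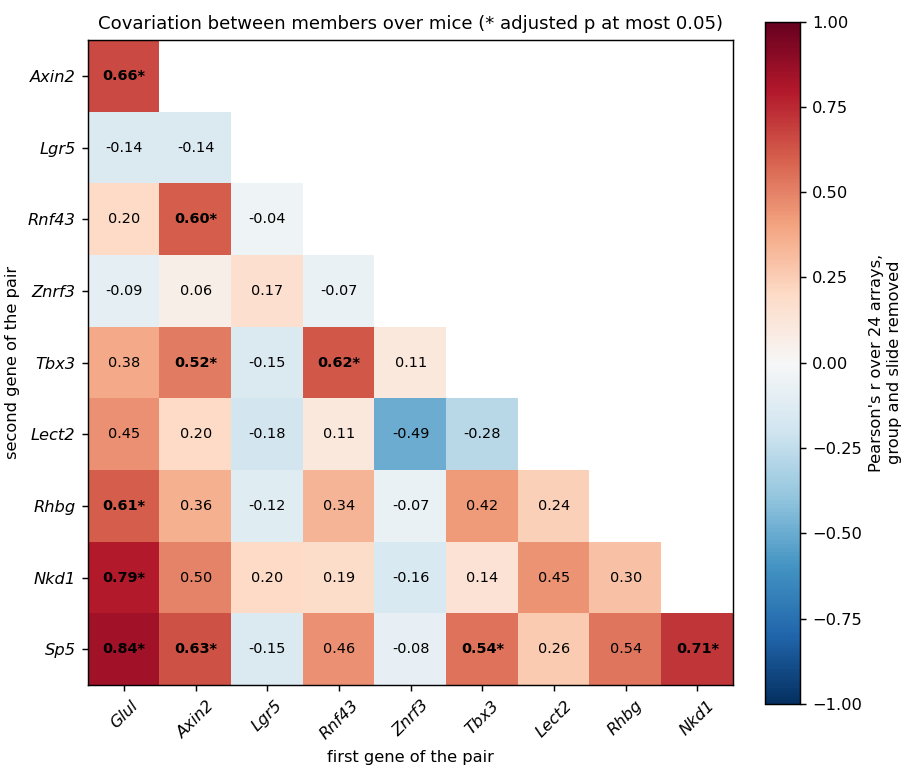
Pearson's r over 24 arrays for each of the 45 pairs after removal of group and slide, with an asterisk where the permutation p adjusted over the pairs was at most 0.05. Glul, Axin2, Nkd1 and Sp5 hold the strongest positive values, up to 0.84, and the rows and columns of Lgr5, Znrf3 and Lect2 hold no asterisk.

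Other parts of the Wnt pathway were examined from lists, and all counts refer to the same 5 comparisons and thresholds. They are descriptions, to be read beside the shares of all genes that were higher and lower with fasting, 19.9% and 21.7% in LWT and 19.7% and 21.8% in LKO. For the genotype difference in fasted mice 10% of all genes were higher and 10.6% lower in LKO, and the interaction was positive for 4.11% and negative for 3.86%. Of 13 ligands, R-spondins and secretion factors 11 were tested. In LWT 2 rose and 3 fell with fasting, and in LKO 1 rose and 3 fell, with list medians of -0.17 and -0.04. Wnt4 fell from 7.97 ± 0.27 (SD, n = 6) to 7.47 ± 0.20 in LWT and from 8.0 ± 0.25 to 6.95 ± 0.15 in LKO, and was lower in LKO than in LWT in fasted mice by 0.55 (adjusted p = 0.00191). Wnt5b fell by 1.03 in LWT and 0.88 in LKO on the log2 scale. Wnt9a rose by 0.30 in LWT (adjusted p = 0.0417, a call made in 27 of 38 settings) and 0.51 in LKO, between 0.19 and 0.69 and between 0.40 and 0.78 over the settings. Porcn, the acyltransferase that Wnt proteins need for secretion, rose by 0.38 in LWT and fell by 0.36 in LKO, and its interaction of -0.74 passed (adjusted p = 0.00193). Rspo3, an R-spondin of central vein endothelium, was higher in LKO than in LWT in fasted mice.

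Receptors were on both sides of 0 with fasting. Of 17 listed receptors and co-receptors 12 were tested, 4 rose and 1 fell in LWT, and 5 rose and 3 fell in LKO. Lrp6, the co-receptor that triggers the canonical branch, rose by 0.67 in LWT (SE 0.0639, adjusted p = 3.33e-08) and 0.72 in LKO (adjusted p = 3.64e-08), while the orphan-type receptor Ror1 fell by 0.78 and 1.09, between -1.27 and -0.58 in LWT and between -1.94 and -0.85 in LKO over the settings. Ryk rose by 0.43 and 0.31, and Fzd6, a Frizzled, rose by 0.67 in LKO, where LWT gave 0.22 (adjusted p = 0.0559) and the interaction 0.45 (adjusted p = 0.0417), a call made in 13 of 37 settings. Of 16 components of the destruction complex and its transducers 9 rose and 2 fell in LWT, and 7 rose and 3 fell in LKO, with medians of 0.22 and 0.14 beside -0.01 and -0.02 over all genes. The kinases Csnk1e (0.24 and 0.64) and Gsk3a (0.43 and 0.53) and the tankyrases Tnks (0.43 and 0.29) and Tnks2 (0.34 and 0.25), which mark Axin for breakdown, were among those that rose in LWT and LKO. Over the settings the rise in LWT lay between 0.14 and 0.34 for Csnk1e, 0.37 and 0.65 for Tnks and 0.21 and 0.37 for Tnks2, and that of Csnk1e in LKO between 0.41 and 0.74. In fasted mice Csnk1e was higher and Apc and Gsk3b were lower in LKO.

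Of 15 TCF/LEF factors and cofactors tested 4 rose and 3 fell in LWT, and 1 rose and 3 fell in LKO. The co-repressor Tle2 fell by 0.26 in LWT and 0.79 in LKO, with an interaction of -0.53 (adjusted p = 0.00163). Ctnnbip1, which keeps β-catenin from TCF factors, fell by 0.57 and 1.02. Bcl9 rose by 0.24 in LWT, a call made in 23 of 38 settings, and by 0.70 in LKO, and its paralogue Bcl9l rose by 0.69 in LWT where LKO gave 0.18 (adjusted p = 0.146). Over the settings the rise in LWT lay between 0.20 and 0.41 for Bcl9 and between 0.35 and 0.73 for Bcl9l. Of 16 secreted and membrane inhibitors only 6 were tested, and the others were too dim. Dkk3 rose by 0.82 in LWT and 0.47 in LKO. Sfrp5 rose by 0.56 in LWT and was lower in LKO in fasted mice by 0.73 (adjusted p = 3.77e-05), although it was well above background on only 4 of 6 arrays of either LKO group. Over the settings the Sfrp5 rise lay between 0.37 and 1.14 and its genotype difference between -1.66 and -0.55. Notum fell by 0.29 in LKO, and Nkd2, the paralogue of Nkd1, fell by 0.50 in LKO and was higher in LKO than in LWT in fed mice by 0.65 (adjusted p = 0.00251).

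Further genes described as β-catenin targets also went both ways. Of 12 listed 10 were tested, 3 rose and 3 fell with fasting in LWT, 2 rose and 3 fell in LKO, and 3 were higher in LKO than in LWT in fasted mice, beside 10% of all genes. Ccnd1, cyclin D1, fell by 1.58 in LWT (SE 0.203, adjusted p = 2.05e-06) and its log2 fold change in LKO was -1.41. Cldn2, a tight junction claudin, fell by 0.81 in LWT, gave 0.12 in LKO (adjusted p = 0.613) and was 1.06 higher in LKO than in LWT in fasted mice (adjusted p = 0.000116). Tnfrsf19 fell by 0.54 in LWT and 0.37 in LKO, between -1.09 and -0.48 and between -0.69 and -0.29 over the settings. Oat, ornithine aminotransferase, rose by 0.62 in LWT and 0.81 in LKO. Cldn2 and Oat are also on the pericentral list below, and Notum is on the list of inhibitors.

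Pericentral genes outside the Wnt set went both ways. Of 23 tested, 6 rose and 9 fell with fasting in LWT (median -0.11), and 3 rose and 12 fell in LKO (median -0.41). Within the slides the medians were -0.39, -0.01 and -0.20 in LWT and -0.56, -0.29 and -0.47 in LKO. Rgn, regucalcin, fell by 0.54 and 1.0, the drug-metabolising Cyp2c29 by 0.49 and 0.94, Cyp1a2 by 0.44 and 1.5 and Gulo, of ascorbate synthesis, by 0.20 and 0.61. Between genotypes in fasted mice 2 were higher and 9 lower in LKO (median -0.19), beside 10% and 10.6% of all genes. The interaction was negative for 7 and positive for 1, beside 3.86% and 4.11% of all genes. Rgn, Cyp2c29, Cyp1a2 and Gulo were among those 7, but they were named for a small adjusted p over comparisons that include the interaction. The interaction of Cyp2c29 passed in 25 and that of Gulo in 32 of 37 settings. Of the same list Oat, Lhpp and Nr1i3 rose in LKO, and the positive interaction was that of Cldn2.

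Periportal genes also went both ways. Of 22 tested, 7 rose and 4 fell with fasting in LWT (median 0.22), and 3 rose and 7 fell in LKO (median -0.12). Within the slides these medians were 0.13, 0.01 and 0.22 in LWT and 0.04, -0.17 and -0.14 in LKO. Apoa4, an apolipoprotein, rose by 1.05 in LWT and 3.76 in LKO. Hsd17b13 rose by 0.64 and 0.66, and Uox, urate oxidase, fell by 0.52 and 0.25, in LKO between -0.27 and -0.15 over the settings. Sfxn1, a serine transporter of mitochondria, rose by 0.36 in LWT and was 0.78 lower in LKO than in LWT in fasted mice (adjusted p = 1.33e-06).

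Whole liver holds several cell types, and their markers were read on the same arrays as the log2 of the summed signal of each list. The 10 hepatocyte markers were all measured and summed to 21.43 to 21.48 in LWT_Fed, 21.35 to 21.48 in LWT_Fasted, 21.43 to 21.47 in LKO_Fed and 21.32 to 21.42 in LKO_Fasted. In fasted mice 3 of the 10, Ttr, Apoc3 and Hnf4a, were lower in LKO and 0 were higher, beside 10.6% and 10% of all genes, with a list median of -0.01. The 8 central vein endothelial markers, which include Wnt2, Wnt9b and Rspo3, summed to 11.90 to 12.11 in LWT_Fed, 11.51 to 12.53 in LWT_Fasted, 11.70 to 12.03 in LKO_Fed and 12.10 to 12.26 in LKO_Fasted. Bright markers weigh most in such a sum. Fabp4 was the brightest in LKO_Fasted, at 11.7 on replicate 4 and 10.5 to 11.2 on the other 5 arrays. The sum thus does not show that 7 of the 8 were lowest on replicate 4. Rspo3 and Fabp4 of that list were higher in LKO in fasted mice, as Sp5 was. The 8 cholangiocyte markers summed to 11.34 to 11.95 in LWT_Fed, 11.09 to 11.43 in LWT_Fasted, 10.28 to 11.23 in LKO_Fed and 9.82 to 10.71 in LKO_Fasted, and Epcam and Spp1 were lower in LKO in both feeding states, as Lect2 was in fasted mice. Over all arrays the sum ran from 14.68 to 15.77 for 12 liver endothelial markers, from 15.88 to 16.44 for 12 stellate cell and fibroblast markers and from 14.57 to 16.61 for 10 Kupffer cell markers, with overlap between all 4 groups. With fasting Lrat, Ngfr and Col3a1 of the stellate list were lower and Dcn higher in both genotypes, and C1qa and C1qb of the Kupffer list were lower in LWT. Wnt9b and Kit of the central vein list and Tek and Fcgr2b of the liver endothelial list were also lower in LWT. Of the cholangiocyte list Krt19, Krt7 and Muc1 were lower and Sox9 higher in LWT. In LKO Krt19 and Spp1 of that list were lower and Sox9 higher, and Fabp4 and Pecam1 of the endothelial lists were higher. Of the pancreas list 3 of 8 genes were measured, of which Cela2a was higher and Ctrb1 lower in LKO in both feeding states. Of the adipose list 5 of 6 were measured, without Adipoq, and Adrb3 was higher and Cfd lower in LKO in both feeding states. The 5 erythroid markers measured summed to 17.09 to 18.09 in LWT_Fed, 16.33 to 18.14 in LWT_Fasted, 16.85 to 18.71 in LKO_Fed and 17.09 to 18.29 in LKO_Fasted, and Alas2, of haem synthesis in red cells, was lower with fasting in LWT (-0.46) and LKO (-0.50) and lower in LKO in fed (-0.80) and fasted mice (-0.83). The part of these cells in the results was not tested.

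For each gene that passed in a comparison, the 2 other genes with the closest centred profile over the 24 arrays were taken from 14348 genes, with likeness given as the root mean square difference in log2 units. Znrf3 was closest to Tnrc6a (0.127) and Trip11 (0.143), and Axin2 to Nlrc5 (0.175) and Bbs7 (0.177). Rhbg was closest to Rtn4ip1 (0.196) and Carhsp1 (0.197), Nkd1 to Rtp4 (0.203) and Oas1c (0.210), and Lect2 to Nxpe2 (0.220) and Gstt1 (0.223). Sp5 was closest to Abcd3 (0.246) and Scn4b (0.267), Rnf43 to Zfp932 (0.268) and Kifc3 (0.268), Lgr5 to Plxna2 (0.292) and Ank3 (0.299), and Tbx3 to Slc25a29 (0.341) and Epha2 (0.348). A small difference is easier to reach for a gene that varies little, and the SD over all arrays was 0.287 for Znrf3 and 0.593 for Tbx3. None of the closest genes was on the lists above.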

How the data were processed

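RNA of whole liver was labelled with Cy3 and hybridised to 1-colour Agilent SurePrint G3 arrays of 60-base probes, and the authors read the scans with Feature Extraction 10.10.1.1 (submitters' processing notes). The deposited scanner files give the median pixel intensity per spot, before any scaling. As an alternative, the value table deposited with the series gives log2 signals that the authors filtered, corrected for the washing bath and quantile normalized. Outlier spots were left out and spots of 1 probe averaged. Probes well above background on at least 5 of 6 arrays of a group were kept (32197 probes), log2 transformed, quantile normalized and fitted with limma 3.58.1 (group means, slide, array weights). P-values were adjusted over all kept probes. Names came from the files and, by accession, from RefSeq (32994 of 56605 probes matched). Fold changes come from this weighted model and can depart from differences of means. The fit was tested on simulated data. Replicate numbers did not pair the mice (mean r of -0.01 over 36 same-number pairs).

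The genes and lists were chosen with earlier results of these data known. Named list genes are those that passed in a comparison, at most 4 a list by smallest adjusted p; other list genes named in the text were chosen after their values were seen. Promoter sequences were read from the RefSeq promoter table, and no protein sequence was used here. The result of 1 marker gene is not reported here.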

Additional observations from a re-analysis of the deposited data

Results flagged for a closer look

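In 40 groups of 6 arrays (10 genes in 4 groups), an array lay farther from the others than Dixon's 95% limit in 5, and chance gives about 1 in 20 groups. Glul at 13.36 and Sp5 at 7.10, both on LKO_Fasted replicate 4, lay below nearest values of 14.38 and 8.62. Rnf43 at 9.85 and Znrf3 at 8.08, both on LKO_Fed replicate 6, lay below 10.53 and above 7.71. Nkd1 at 8.57 on LWT_Fasted replicate 2 lay above 8.25.

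The fasting change differed between the genotypes, by limma's interaction term, for Lect2 at -0.69 (adjusted p = 0.0318) and for Sp5 at 0.80 (adjusted p = 0.0352). Both calls were lost under some alternatives, 9 of 37 for Lect2 and 16 of 37 for Sp5.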

How the results depend on the processing

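Counts of genes passing were 6 (fasting in LWT), 8 (fasting in LKO), 0 (genotype in fed mice), 2 (genotype in fasted mice) and 2 (interaction). With a fold over 1.5 they were 3, 5, 0, 1 and 2. For fasting in LWT, Tbx3 and Lect2 were lost without the filter (limma adjusted p 0.0975 and 0.0726). On the authors' matrix Axin2 and Rnf43 passed there (0.0357 and 0.0491). For fasting in LKO, Rhbg was lost and Nkd1 passed with the processed signal and with normexp. With these 2 settings Nkd1 also passed in the interaction (0.0402 and 0.0371). In fed mice 2 passed with the processed signal, median scaling, the authors' matrix or the replicate block, and 1 with normexp, without the slide term, with slide as a random block, with array row, with only the compared groups or with the mean of all probes. In fasted mice 1 passed without the filter, without array weights, with only the compared groups or without LKO_Fasted replicates 1 and 2 (chosen after seeing the data). The interaction gave 1 with median scaling, without array weights or without those replicates, and 0 without the filter (limma, 3 at an unadjusted p under 0.05). Leaving out 1 array gave 4 to 7, 7 to 9, 0 to 1, 1 to 2 and 0 to 3. No called value turned its sign over all arrays in 1870 comparisons with alternatives. Within single slides Rhbg in fasted LKO turned to 0.0022 (slide 2), and Sp5 to -0.46 for genotype in fasted mice and -0.43 for the interaction (slide 1). The number of arrays and, for Axin2, signal near background limit precision. Sp5 lost its genotype call (adjusted p 0.0569 to 0.104) without any 1 of LWT_Fed replicate 5, LWT_Fasted replicates 3, 5 and 6 or LKO_Fasted replicates 1, 2, 3, 5 and 6, and under the replicate block (0.0624). The replicate block changed no call in the other comparisons except Axin2, which passed for fasting in LWT (0.0238) and genotype in fasted mice (0.0333), and Znrf3 (0.0287) and Nkd1 (0.0371) in fed mice. The correlations passed for 9 pairs without the slide term and 10 with the processed signal. Causes were not tested.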

Other observations

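Some arrays were at the other end of their group from LKO_Fasted replicate 4. LWT_Fed replicate 4 was the highest of its 6 arrays for 6 of the 10 genes, Glul, Axin2, Lgr5, Rnf43, Nkd1 and Sp5, and the lowest for none, while 19.5% of all genes were highest on it and 15.7% lowest. On that array 11 of the 23 other pericentral genes were highest and 0 lowest, 6 of the 22 periportal genes were lowest and 1 highest, and 7 of the 8 central vein endothelial markers were highest. LKO_Fasted replicate 2 was highest for Glul, Lect2, Rhbg and Nkd1 and lowest for Lgr5, where 15% of all genes were highest, with 11 of the 23 pericentral genes and 5 of the 8 central vein markers highest and 7 of the 22 periportal genes lowest. LKO_Fed replicate 4 was highest for Glul, Axin2, Lect2 and Nkd1, where 15.2% of all genes were highest and 16.2% lowest. On it 10 of the 23 pericentral genes were highest and 7 of the 22 periportal genes lowest, but 2 of the 8 central vein markers lowest. Some other arrays did not follow this pattern, and not every array is described. On LWT_Fed replicate 3, 9 pericentral and 8 periportal genes were highest, beside 23% of all genes, and 2 and 5 were lowest, beside 32.7%. LWT_Fasted replicate 2 was highest for Glul, Rhbg, Nkd1 and Sp5, lowest for Znrf3 and highest for all 8 central vein markers. On it 7 of the 23 pericentral genes were lowest and 4 highest, beside 25.1% and 26.9% of all genes. These arrays were picked after their values were seen, and no test was made.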
